A study of Mus musculus with 12 samples.

Results

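The retinoid transport and signalling genes comprise 8 genes that carry, take up, make, break down or sense retinoic acid: Rbp4, Stra6, Aldh1a1, Aldh1a2, Cyp26b1, Rara, Rarb and Rarg. They were found by gene name among the non-control probes of the array, which gave 14 probes of 56605, and 13 of these 14 passed the filter on dim probes. All 8 genes entered the fit, out of 33189 genes tested. Rbp4 and Cyp26b1 were chosen by their measured levels after POL5551, so their POL5551 values are given as a description with no test, while the other 6 genes were added for their place in the pathway.

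Vitamin A travels in blood as retinol bound to retinol-binding protein RBP4, enters cells through the membrane receptor STRA6, and is oxidised first to retinal and then, by the ALDH1A enzymes, to retinoic acid. Retinoic acid binds the receptors RARA, RARB and RARG, which sit with RXR partners on response elements in target promoters, and CYP26 enzymes such as CYP26B1 degrade it. In mouse bone marrow, retinoic acid signalling is known for holding haematopoietic stem cells in a dormant state.

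The cells were stem cells from male mice, enriched from bone marrow for Kit and then sorted as LSK SLAM cells, a gate on Lineage-, Sca-1+, Kit+ cells with SLAM-family surface markers that holds most long-term stem cells. POL5551, which blocks CXCR4, the chemokine receptor that keeps stem cells in the marrow, was given by continuous infusion at 100 mg/kg/day for 2 weeks, and cells were taken 14 days after the start of infusion. Granulocyte colony-stimulating factor (G-CSF) was injected at 100 ug/kg every 12 h, either 9 times over 5 days or 4 times over 2 days, and the comparison mice had a sham operation. Each group held 3 mice with 1 single-colour array per mouse; strain and age are not given.

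A level is the log2 signal relative to the 75th percentile of its array, so that 0 is the level of that percentile, and a difference is between mean levels in log2 units. Between 75.3% and 85.6% of non-control probes were well above background on each array, and no non-control spot was saturated. The sort gate list held Kit, Ly6a, Slamf1, Procr, Cd34, Cd48, Flt3 and Ptprc. All 8 were well above background on 11 arrays and 7 of 8 on sham 1, which does not measure the purity of the sort. Of 13 lineage markers, 12 to 13 were also well above background on each array but sham 1, where 9 were. Their mean levels in sham mice ran from -4.79 for S100a8 to 7.38 for Itgam, with Mpo at -0.66, beside 3.04 for Kit. Sham 1 stood apart from the other sham arrays, with rank correlations over genes of 0.787 and 0.784 against 0.936 between sham 2 and sham 3, and 0.934 to 0.962 within the other groups. The median level of 1535 probes for genes of other tissues, mostly olfactory receptors, ranged from -5.17 to -4.11 after POL5551, -3.97 to -3.25 after 5 days of G-CSF, -2.73 to -2.40 after 2 days, and was -1.61 on sham 1 and -3.30 and -3.45 on the other sham arrays. Members' differences from sham are therefore also given without sham 1. The median difference of all genes from sham was -0.52 after POL5551, -0.13 in the 5-day and 0.10 in the 2-day G-CSF group on this scaling, and -0.26 after POL5551 without sham 1. The 2-day arrays were alone on their slide, so slide and group cannot be told apart there. No 5-day array shared a slide with a sham array either, so 5-day differences from sham also lie between slides.

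Rbp4, the plasma carrier of retinol, was read by 1 probe on chr19:38191129-38191188 (minus strand, mm9), matched to RefSeq transcripts of the gene. The first 30 of its 60 bases are printed because the detection of the gene rests on this probe alone.
Rbp4 probe: tactgaaggtccctgaaagatgtttgaggc
Its level was -1.86, -3.27 and -2.79 in POL5551 mice 1 to 3, -2.999, -4.99 and -3.89 in 5-day G-CSF mice, -2.85, -4.58 and -3.41 in 2-day G-CSF mice, and -5.87, -6.42 and -6.60 in sham mice. Every treated array lay above every sham array, as for 10.6% of all genes after POL5551, 4.43% in the 5-day and 6.63% in the 2-day G-CSF group. The probe was well above background on 3 of 3 POL5551 arrays, 1 of 3 arrays after 5 days and 2 of 3 after 2 days, and on 0 of 3 sham arrays, so the sham level is only an upper bound.

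Group means were -2.64 ± 0.72 after POL5551, -3.96 ± 1.00 after 5 days of G-CSF, -3.61 ± 0.88 after 2 days and -6.29 ± 0.38 in sham mice (SD, n = 3 each). Against the lowest signal that passed as well above background on each sham array, Rbp4 was at least 4.01-fold higher after POL5551. The same calculation gave 1.61-fold after 5 days of G-CSF and 2.05-fold after 2 days. The G-CSF values are not lower bounds, since Rbp4 was well above background on only 1 of 3 and 2 of 3 of those arrays. The measured difference after POL5551 was 3.65, and 4.01 and 3.23 within slides 1 and 2, which held both groups. By limma over all genes, the difference after 5 days of G-CSF was 2.33 ± 0.59 (SE; adjusted p = 0.253) and after 2 days 2.68 ± 0.59 (adjusted p = 0.266), neither past the threshold of 0.05. Without sham 1 these were 3.87 after POL5551, 2.55 after 5 days (adjusted p = 0.317) and 2.89 after 2 days (adjusted p = 0.0735). The 3 treated groups share the sham arrays, and the 5-day and 2-day groups, which do not, differed by -0.35 ± 0.59 (adjusted p = 0.740).

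Within each treated group mouse 2 had the lowest Rbp4 level. Mouse 2 also had the lowest summed level of bone marrow stromal genes in each of these groups. Of 15 stromal genes, including Cxcl12, Lepr and the collagens, 14 were tested, and 13 to 14 of them were well above background on POL5551 arrays, 14 after 5 days of G-CSF, 12 to 14 after 2 days and 11 to 13 in sham mice. Their summed level ranged from 4.21 to 5.51 after POL5551, 3.81 to 5.15 after 5 days, 3.72 to 5.41 after 2 days and 3.29 to 4.04 in sham mice. Over the 12 arrays, which share the group structure, the Rbp4 level had a Pearson r of 0.798 with this sum. Cxcl12, the ligand of CXCR4 and a defining stromal gene, was at 3.03, 1.45 and 3.16 in POL5551 mice, 2.94, 1.03 and 2.62 in 5-day G-CSF mice, -1.48, -1.38 and 2.34 in 2-day G-CSF mice, and -0.48, -0.75 and -1.54 in sham mice. Of the 14 tested stromal genes, 9 had a positive difference from sham after POL5551 (median 1.08), 11 after 5 days (median 0.89) and 11 after 2 days (median 0.68). After POL5551 2 of the 14 passed the threshold, where 2.28% of all genes did, and the lowest difference was that of Pdgfra, at -0.82. The part of stromal RNA in the Rbp4 level was not tested, and in sorted bulk samples fewer cells of a type and less RNA per cell cannot be told apart. Of 8 hepatocyte markers 6 were tested, and their summed level was -0.69 to -0.13 after POL5551, -0.10 to 0.32 after 5 days of G-CSF, 1.09 to 1.81 after 2 days and 0.26 to 1.65 in sham mice. Their differences from sham were positive for 0 of 6 after POL5551, 1 of 6 after 5 days and 4 of 6 after 2 days.

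**Figure D1:**
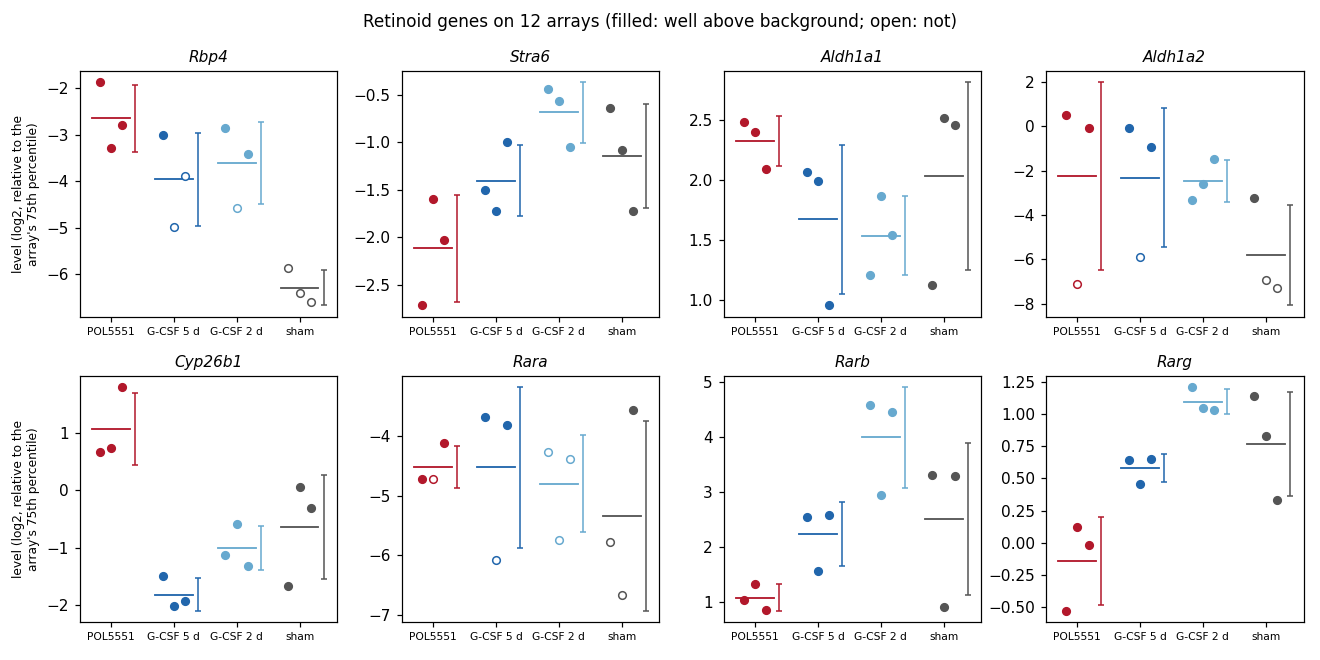
Level of each of the 8 genes (log2, relative to the array's 75th percentile, vertical axis) by group for the brightest tested probe of the gene; points are mice, filled where the probe was well above background, horizontal lines are means and bars SD. All 9 treated arrays lie above the 3 sham arrays for Rbp4, and the 3 POL5551 arrays lie above all other arrays for Cyp26b1. Both genes were picked for their POL5551 values.

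Stra6, the cell-surface receptor that takes up retinol from RBP4, was well above background on 12 of 12 arrays. Its level was -2.72, -1.60 and -2.02 in POL5551 mice, -1.50, -1.72 and -0.99 in 5-day G-CSF mice, -0.44, -0.57 and -1.05 in 2-day G-CSF mice, and -0.63, -1.07 and -1.72 in sham mice. The groups overlapped, with the lowest mean after POL5551. The POL5551 difference was -0.97 ± 0.40 (SE; limma, adjusted p = 0.122), and -0.72 without sham 1 (adjusted p = 0.347). G-CSF gave -0.26 ± 0.40 after 5 days (adjusted p = 0.801) and 0.46 ± 0.40 after 2 days (adjusted p = 0.807), and -0.01 and 0.71 without sham 1 (adjusted p = 0.999 and 0.283). The Stra6 level had an r of 0.893 with the median of the genes of other tissues over the 12 arrays, and the part of that shift in its difference was not tested.

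Aldh1a1 and Aldh1a2, the dehydrogenases that make retinoic acid from retinal, had different patterns. Aldh1a1 was well above background on all arrays, at 2.48, 2.40 and 2.10 in POL5551 mice, 2.07, 2.00 and 0.96 in 5-day G-CSF mice, 1.21, 1.87 and 1.54 in 2-day G-CSF mice, and 1.13, 2.52 and 2.46 in sham mice. The groups overlapped, and sham 1 was more than a unit below the other sham arrays. Differences from sham were 0.29 ± 0.44 after POL5551 (limma, adjusted p = 0.611), -0.36 ± 0.44 after 5 days (adjusted p = 0.747) and -0.50 ± 0.44 after 2 days (adjusted p = 0.811). Without sham 1 they were -0.16, -0.81 and -0.95 (adjusted p = 0.811, 0.630 and 0.162), so the sign of the POL5551 value rests on that array. Over the 12 arrays the Aldh1a1 level had an r of 0.897 with the summed level of the sort gate genes and -0.716 with the median of the genes of other tissues.

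Aldh1a2 varied widely among mice, with an SD of 4.23 in POL5551 mice, 3.15 in 5-day and 0.95 in 2-day G-CSF mice, and 2.26 in sham mice. Its level was 0.50, -7.11 and -0.09 in POL5551 mice, -0.08, -5.92 and -0.95 in 5-day G-CSF mice, -3.35, -2.60 and -1.47 in 2-day G-CSF mice, and -3.23, -6.94 and -7.31 in sham mice. The probe was well above background in POL5551 mice 1 and 3, 5-day mice 1 and 3, all 2-day mice and sham 1, and on no other array. Differences from sham were 3.59 ± 2.02 after POL5551 (limma, adjusted p = 0.201), 3.51 ± 2.02 after 5 days (adjusted p = 0.527) and 3.35 ± 2.02 after 2 days (adjusted p = 0.665). The POL5551 difference was 3.72 within one shared slide and 0.02 within the other, and without sham 1 the 3 values were 4.89, 4.81 and 4.65. Its level had an r of 0.857 with the stromal sum, and the 3 genes with the most similar pattern over the 12 arrays were Pcolce (r = 0.979), Snai2 (0.966) and Pmp22 (0.954). Pcolce encodes an enhancer of procollagen processing and Snai2 a transcription factor of mesenchymal cells.

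**Figure D2:**
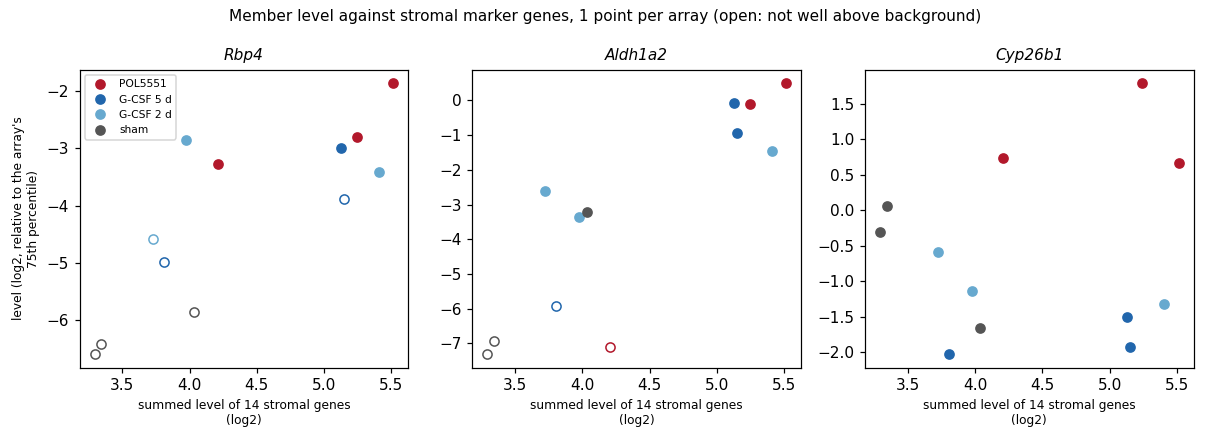
Levels of Rbp4, Aldh1a2 and Cyp26b1 (log2, relative to the array's 75th percentile) against the log2 summed level of 14 stromal genes, 1 point per array, open where the probe was not well above background. Rbp4 and Aldh1a2 are high on arrays with a high stromal sum (r = 0.798 and 0.857), while Cyp26b1 is not (r = 0.111).

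Cyp26b1, the enzyme that degrades retinoic acid, was well above background on 12 of 12 arrays. Its probe lies on chr6:84521952-84522011 (minus strand, mm9) and is shown because it is the only probe of the gene.
Cyp26b1 probe, first 30 bases: gttcgtgtgtctcgttgtggtagcattaat
The level was 0.67, 0.74 and 1.79 in POL5551 mice, -1.50, -2.03 and -1.93 in 5-day G-CSF mice, -1.13, -0.58 and -1.32 in 2-day G-CSF mice, and -1.66, 0.06 and -0.30 in sham mice. All POL5551 arrays lay above all other arrays, but the gene was picked for its POL5551 values. Of all genes, 10.6% lay above sham after POL5551. The 5-day arrays lay below the 2-day arrays, as for 23.3% of all genes.

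The Cyp26b1 means were 1.07 ± 0.63 after POL5551, -1.82 ± 0.28 in 5-day and -1.01 ± 0.38 in 2-day G-CSF mice and -0.64 ± 0.91 in sham mice (SD, n = 3 each). From high to low the order was POL5551, sham, 2-day and 5-day G-CSF, and the sham and 2-day means differed by less than the sham spread. The POL5551 difference was 1.71, with 2.34 and 0.86 within the shared slides and 1.19 without sham 1. It was 0.86 with the median of the genes of other tissues as a covariate. Over the 12 arrays the Cyp26b1 level had an r of -0.562 with that median and 0.707 with the summed level of the sort gate genes. The part of these shifts in its differences was not tested. After G-CSF the difference was -1.18 ± 0.48 at 5 days (SE; limma, adjusted p = 0.407) and -0.38 ± 0.48 at 2 days (adjusted p = 0.884). Without sham 1 these were -1.70 (adjusted p = 0.264) and -0.89 (adjusted p = 0.199). The 5-day and 2-day groups differed by -0.81 ± 0.48 (adjusted p = 0.392). The POL5551 mean, for which the gene was picked, lay above the sham mean, and both G-CSF means lay below it. No G-CSF difference passed the threshold, and the 2-day difference was -0.03 without sham 2. The 3 genes with the pattern most like that of Cyp26b1 were Igf2r (r = 0.925), the receptor that carries lysosomal enzymes, Nsmce3 (0.922) and Myo1d (0.901).

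The retinoic acid receptors were read by 2 probes for Rara, 4 for Rarb and 3 for Rarg, and probes of one receptor did not give one pattern. Rara was dim: its brighter probe was well above background on 5 of 12 arrays and its other probe on 7. On the other probe, Rara was at -3.97, -3.13 and -4.24 in POL5551 mice, -3.27, -4.84 and -3.93 in 5-day G-CSF mice, -4.27, -5.83 and -6.75 in 2-day G-CSF mice, and -6.10, -6.92 and -4.41 in sham mice. The POL5551 arrays lay above the sham arrays, as for 11.4% of all probes tested, with a difference of 2.03 ± 0.75 (SE; limma over all probes, adjusted p = 0.118) that passed only without sham 3 (2.73, adjusted p = 0.0474). Without sham 1 it was 1.89 (adjusted p = 0.312). After G-CSF this probe differed by 1.80 at 5 days (adjusted p = 0.420) and 0.19 at 2 days (adjusted p = 0.969), and by 1.65 and 0.05 without sham 1. On the brighter probe the POL5551 difference was 0.81 ± 0.81 (adjusted p = 0.441), or 0.59 without sham 1 (adjusted p = 0.726), and the groups overlapped.

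Rarb, itself a classical target of retinoic acid, gave readings at its ends that differed most after 2 days of G-CSF, where the differences from sham had opposite signs. Both probes are shown since they give the gene its 2 readings; the downstream probe matches all 4 RefSeq transcripts listed for the gene, and the upstream probe 2 of them.
Rarb downstream probe, chr14:17263511-17263570 (minus strand, mm9), first 30 bases: aatgagtggttgacagactcaagtgtcggc
Rarb upstream probe, chr14:17651424-17651483 (minus strand, mm9), first 30 bases: tattgagcctgtttgcacacactcaccacc
The downstream probe was at -1.92, -1.45 and -0.84 in POL5551 mice, -3.04, -2.85 and -2.11 in 5-day G-CSF mice, -2.72, -2.51 and -2.38 in 2-day G-CSF mice, and -0.55, -0.15 and -1.30 in sham mice. Every G-CSF array lay below every sham array, as for 7.54% of all probes after 5 days and 6.08% after 2 days, and POL5551 overlapped sham. The difference was -1.999 ± 0.41 after 5 days (SE; limma over all probes, adjusted p = 0.148), -1.87 ± 0.41 after 2 days (adjusted p = 0.238) and -0.74 ± 0.41 after POL5551 (adjusted p = 0.215). Without sham 1 the values were -1.94 (adjusted p = 0.239), -1.81 (adjusted p = 0.0921) and -0.68 (adjusted p = 0.442).

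The upstream Rarb probe was at 1.04, 1.33 and 0.86 in POL5551 mice, 2.54, 1.55 and 2.58 in 5-day G-CSF mice, 4.58, 2.93 and 4.45 in 2-day G-CSF mice, and 3.31, 0.91 and 3.29 in sham mice. The 2-day mean was highest, and the 2-day arrays lay above the 5-day arrays, as for 23.3% of all genes. Sham 2 was as low as the POL5551 arrays. Differences from sham were -1.43 ± 0.65 after POL5551 (limma over all genes, adjusted p = 0.145), -0.28 ± 0.65 after 5 days (adjusted p = 0.879) and 1.49 ± 0.65 after 2 days (adjusted p = 0.534). Without sham 1 they were -1.02, 0.13 and 1.89 (adjusted p = 0.428, 0.984 and 0.151). The POL5551 difference passed only without sham 2 (-2.22, adjusted p = 0.0412). The 5-day minus 2-day difference was -1.76 ± 0.65 (adjusted p = 0.265). This probe had an r of 0.904 with the summed level of hepatocyte markers and 0.742 with the median of genes of other tissues, against -0.113 and 0.079 for the downstream probe, and the part of those shifts in its differences was not tested. The remaining Rarb probes were well above background on 3 and 1 of 12 arrays.

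The Rarb promoter is shown because it is the only one of 17 member promoter windows with a retinoic acid response element of the DR5 kind, and Cyp26b1 because its POL5551 arrays lay above all other arrays. The sequences are RefSeq's for GRCm38.p6 and hold the 250 bases before the transcription start, all 8 members having at least 1 window.
Rarb, chr14:16575477-16575726 (minus strand), capitals marking the half-sites of the DR5: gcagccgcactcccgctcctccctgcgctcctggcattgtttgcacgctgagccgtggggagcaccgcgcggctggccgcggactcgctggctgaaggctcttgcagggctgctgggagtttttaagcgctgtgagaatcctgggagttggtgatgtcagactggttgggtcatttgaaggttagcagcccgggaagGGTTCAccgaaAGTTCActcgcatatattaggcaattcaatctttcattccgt
Cyp26b1, chr6:84593811-84594060 (minus strand), capitals marking TATAAA: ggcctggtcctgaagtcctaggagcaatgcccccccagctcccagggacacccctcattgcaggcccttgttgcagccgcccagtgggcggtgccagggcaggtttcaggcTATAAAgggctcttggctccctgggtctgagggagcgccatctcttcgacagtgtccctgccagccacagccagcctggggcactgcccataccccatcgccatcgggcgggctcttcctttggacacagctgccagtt
A half-site was AGGTCA on either strand, or one of its close forms, GGGTCA, which differs at the first base, AGTTCA, which differs at the third base, and GGTTCA, which differs at both, and a DR5 was 2 of them in the same direction 5 bases apart. The Rarb DR5 began 53 bases before the start, and 29 of 32851 promoter windows (0.0883%) held one, while 38.6% held at least 1 half-site. TATAAA, searched on both strands, was in 12.4% of windows, and the Cyp26b1 window held no half-site. The TATAAA of Cyp26b1 began 139 bases before the start, and a Rbp4 window held one 28 bases before the start. These matches describe letters in the windows and not binding.

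Rarg, a receptor tied to stem cell maintenance in mice, was read by 3 probes that were well above background on all 12 arrays. The upstream probe was at -0.53, 0.12 and -0.02 in POL5551 mice, 0.64, 0.45 and 0.65 in 5-day G-CSF mice, 1.21, 1.04 and 1.03 in 2-day G-CSF mice, and 1.14, 0.83 and 0.34 in sham mice. The POL5551 arrays lay below the sham arrays, as for 25.7% of all genes. The difference was -0.91 ± 0.31 (SE, limma over all genes, adjusted p = 0.0894), -0.72 without sham 1 (adjusted p = 0.235) and -1.12 without sham 3 (adjusted p = 0.0451). After G-CSF it was -0.18 at 5 days (adjusted p = 0.819) and 0.33 at 2 days (adjusted p = 0.821), and 0.00 and 0.51 without sham 1. The level of this probe had an r of 0.917 with the median of genes of other tissues. The middle probe lay below sham on all 9 treated arrays, as did 21.8% of all probes after POL5551, 7.54% after 5 days and 6.08% after 2 days. Its differences were -0.80 ± 0.28 after POL5551 (limma over all probes, adjusted p = 0.110), -0.56 ± 0.28 after 5 days (adjusted p = 0.473) and -0.40 ± 0.28 after 2 days (adjusted p = 0.726). Without sham 1 they were -0.85, -0.62 and -0.46 (adjusted p = 0.201, 0.593 and 0.320).

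The downstream Rarg probe went the other way after POL5551. It was at 0.49, 0.83 and 0.78 in POL5551 mice, -0.15, -0.37 and -0.76 in 5-day G-CSF mice, -1.25, 0.00 and -0.48 in 2-day G-CSF mice, and -3.41, 0.65 and 0.20 in sham mice. The low value of sham 1 set its difference: 1.55 ± 0.85 after POL5551 with all arrays (limma over all probes, adjusted p = 0.208) and 0.28 without sham 1 (adjusted p = 0.709). For G-CSF the sign turned, with 0.43 after 5 days and 0.28 after 2 days with all arrays, and -0.85 and -1.0 without sham 1.

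**Figure D3:**
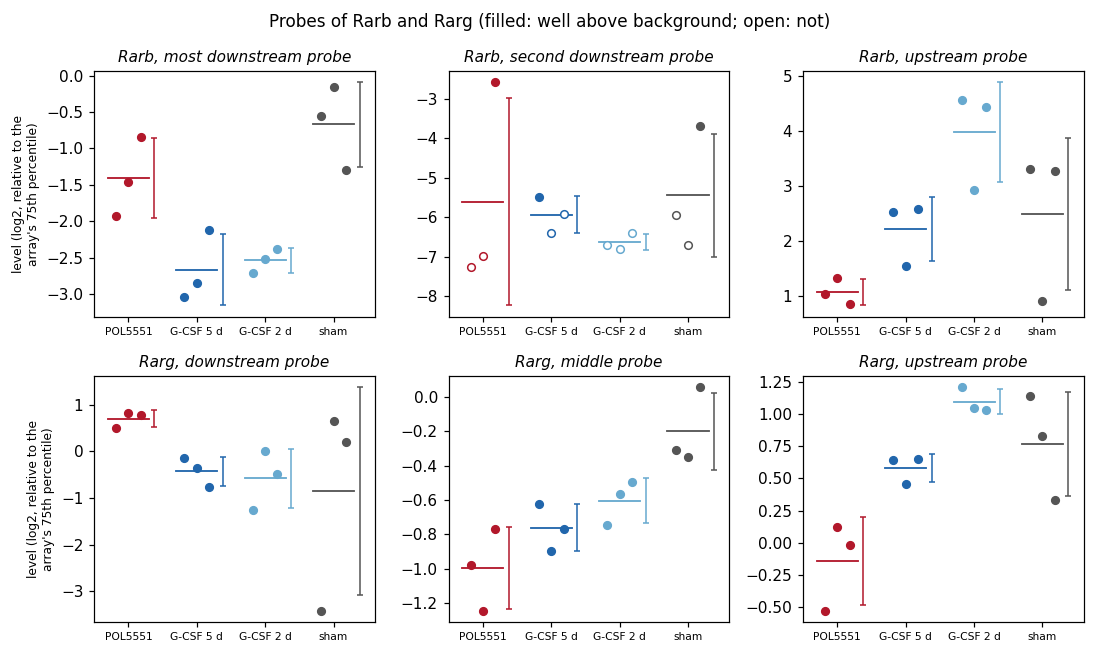
Level (log2, relative to the array's 75th percentile) of 3 probes each of Rarb (top) and Rarg (bottom), ordered from the downstream to the upstream end of the gene; points are mice, filled where well above background, with means and SD. The downstream Rarb probe has every G-CSF array below every sham array, while the upstream probe is highest after 2 days of G-CSF.

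Across the 6 genes not picked for their POL5551 values, 0 passed the threshold after POL5551, where 2.28% of all genes did (59 higher and 699 lower); 2 of the 6, Stra6 and Rarg, had an unadjusted p under 0.05, against 35.0% of all genes. After 5 days of G-CSF 0 of 8 passed, with 0.0663% of all genes, and after 2 days 0 of 8, with 0.0331%. At an unadjusted p under 0.05, Rbp4 and Cyp26b1 passed after 5 days and Rbp4 and Rarb after 2 days, against 11.1% and 9.12% of all genes. Between 5 and 2 days 0 of 8 genes passed, with 0 of 33189 in all, and 1 (Rarb) had an unadjusted p under 0.05, against 16.2% of genes. Of the 5 further tested probes of the receptors 0 passed in any comparison, where 1.41% of all probes did after POL5551, 0.0727% after 5 days and 0.0222% after 2 days.

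By non-overlapping ranges, 1 of the 6 genes (Rarg) lay below sham after POL5551, as did 25.7% of all genes, and 0 lay above. Rbp4 alone of the 8 lay above sham in both G-CSF groups. Cyp26b1, Rarb and Rarg lay below at 5 days relative to 2 days, where 23.3% of genes did. The median difference over the 8 genes was -0.22 after 5 days and 0.50 after 2 days of G-CSF, beside -0.13 and 0.10 over all genes.

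**Figure D4:**
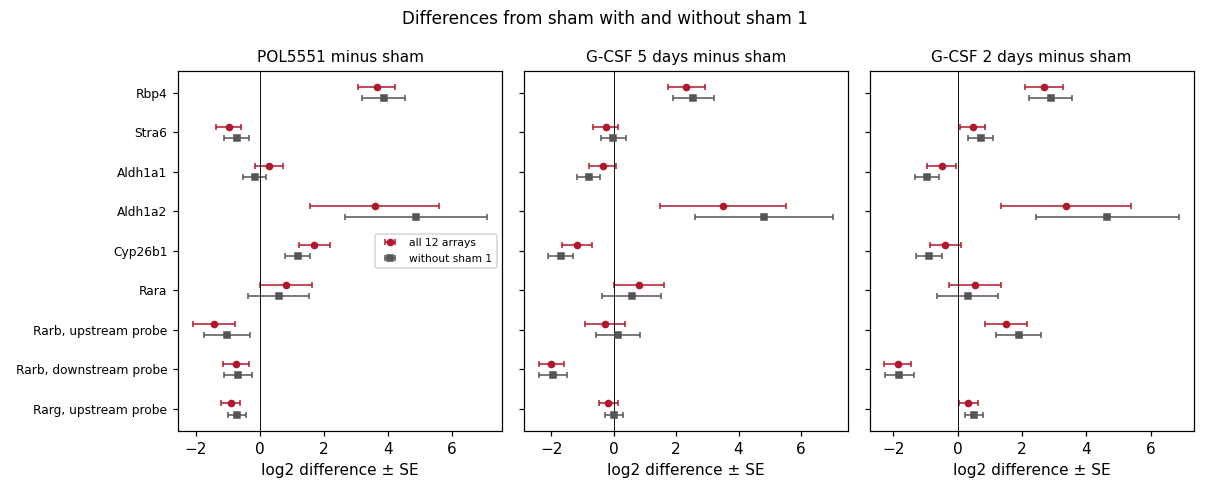
Difference from sham (log2, with SE from limma) for 8 genes, Rarb with both probes, with all 12 arrays (red circles) and without sham 1 (grey squares). Rbp4 lies between 2.33 and 3.87 in all panels, and Cyp26b1 lies above 0 after POL5551 and below 0 after G-CSF, with and without sham 1. Both genes were picked for their POL5551 values, and no G-CSF difference of either passed the threshold.

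The other genes of the pathway were taken from lists of 81 genes for transport and storage, synthesis, clearance, receptor partners, targets and stem cell dormancy, of which 72 were tested. After POL5551 0 were higher and 1 was lower, after 5 days of G-CSF 1 was higher and 0 lower, and after 2 days, as between 5 and 2 days, 0 passed. At an unadjusted p under 0.05 there were 18 of the 72 after POL5551 (25.0%, against 35.0% of all genes), 7 after 5 days (9.72%, against 11.1%), 11 after 2 days (15.3%, against 9.12%) and 10 between 5 and 2 days (13.9%, against 16.2%). The median difference over the 72 genes was 0.19 after POL5551, -0.01 after 5 days and 0.12 after 2 days, beside the medians over all genes given above.

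Dhrs3, a retinal reductase and a known target of retinoic acid, rose after 5 days of G-CSF. Its level was 0.41, -0.14 and 0.64 in POL5551 mice, 1.43, 0.94 and 1.22 after 5 days, 0.99, -0.10 and 0.57 after 2 days, and -0.93, -1.54 and -1.20 in sham mice. Each treated group lay above sham, as for 10.6% of all genes after POL5551, 4.43% after 5 days and 6.63% after 2 days. The difference was 2.42 ± 0.36 after 5 days (SE; limma, adjusted p = 0.0484), 1.71 ± 0.36 after 2 days (adjusted p = 0.235) and 1.52 ± 0.36 after POL5551 (adjusted p = 0.0529). The 5-day call was lost when any one of the 6 arrays was left out (adjusted p = 0.0577 to 0.253), while the difference stayed between 2.26 and 2.57. With slide as a block it was 1.57 (adjusted p = 0.704). A second Dhrs3 probe gave 3.40 after 5 days (adjusted p = 0.0655).

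Adh7, an alcohol dehydrogenase that can oxidise retinol, fell after POL5551, where 699 of the 758 genes called were lower. It was at -5.78, -6.18 and -5.03 in POL5551 mice, where it was well above background on 0 of 3 arrays, against -1.64, -3.29 and -2.41 in sham mice, at least 5.77-fold lower. The difference was -3.22 ± 0.55 (SE, limma, adjusted p = 0.0250), and -2.81 without sham 1 (adjusted p = 0.0811). The call was also lost without POL5551 mouse 1 (adjusted p = 0.101) or mouse 2 (adjusted p = 0.0673). Adh7 was also lower than sham after G-CSF, by limma -1.24 at 5 days (adjusted p = 0.432) and -1.73 at 2 days (adjusted p = 0.435).

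No other gene of these lists passed, and some genes at the ends of the lists are given by their values. In transport and storage, Stra6l, which encodes an RBP4 receptor, differed by -1.47 after 5 days of G-CSF (limma, adjusted p = 0.313). In synthesis, the retinol dehydrogenase genes Rdh11 and Rdh12 had the highest differences, Rdh11 with 1.91 after POL5551 (adjusted p = 0.0703) and Rdh12 with 2.96 after 2 days of G-CSF (adjusted p = 0.232). For Rdh11, sham 1 was at -3.18 and the other sham arrays at -1.27 and -0.61. In clearance, Cyp26c1 differed by -0.60 after POL5551 (adjusted p = 0.416) and 0.68 after 5 days (adjusted p = 0.640). Among receptor partners, Rxrb, which pairs with the retinoic acid receptors, differed by 1.2 after 5 days (adjusted p = 0.526). Its sham 1 level was -1.41, against 1.39 and 1.90 on the other sham arrays. Among dormancy genes, the cell-cycle inhibitor Cdkn1c had the lowest G-CSF differences, -1.39 after 5 days (adjusted p = 0.327) and -1.78 after 2 days (adjusted p = 0.313), and Mecom the lowest after POL5551, -1.35 (adjusted p = 0.0899). After POL5551 12 of the 16 dormancy genes had a positive difference, with a median of 0.50 beside -0.52 over all genes, and Hoxb5 the highest, 2.16 (adjusted p = 0.204), with sham 1 at -5.85 and the other sham arrays at -0.03 and -0.57.

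The genes with the most similar pattern over the 12 arrays differed between members. For Rbp4 they were the creatine transporter gene Slc6a8 (r = 0.907), Tgfb3 (0.869) and Atxn1l (0.868), and for Aldh1a1 Kif1b (0.980), Erg28 (0.952) and Commd10 (0.948). For Stra6 they were Vpreb2, Pla2g5 (both 0.977) and Sema4g (0.973), and for the upstream Rarb probe Nphs1 (0.986), Ipmk (0.984) and Sycn (0.982). Between members, Rbp4 and Aldh1a2 had an r of 0.701, Aldh1a1 and Cyp26b1 0.651, and both ends of Rarb -0.394.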

How the data were processed

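Expression was measured in 12 samples on single-colour Agilent arrays read in Cy5. Per the file headers, the deposited scanner files hold a linear fluorescence intensity for each spot, after background subtraction, spatial detrending and replacement of values not above background by a surrogate, without scaling between arrays. The program was Agilent Feature Extraction (version 11.5.1.1, per the submitters' processing notes). The value table deposited by the authors holds normalized intensities of the same arrays, and their log2 was taken here. How that table was scaled is not given in the sources used here. Its ranks matched each scanner file to a column of the same group (rank correlation at least 0.9999978), but to another mouse number for the POL5551 mice and for 5-day mice 2 and 3; mouse numbers here are those of the scanner files.

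Control and outlier spots were dropped, repeated spots averaged, and log2 intensity taken minus the array's 75th percentile. A probe was tested if well above background on at least 3 of 12 arrays, and a gene was its brightest tested probe. limma 3.58.1 in R 4.3.3 (lmFit, eBayes, all 12 arrays, two-sided) gave differences, with Benjamini-Hochberg adjustment over 33189 genes, or over 49497 probes where a gene's other probe is described. The steps were tested on simulated data. A lower bound in fold sets the brighter group's mean against, per array of the dim group, the lowest signal well above background or the probe's own, whichever was higher. It is a bound only where every array of the brighter group was well above background.

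The members and lists were chosen with earlier results of these data known. Named genes were all members, each list gene past the threshold, the ends of each list and the 3 genes most correlated with each member; for the remaining ends, one or more per list are printed. Some genes at the ends of the lists are not reported here. Mouse numbers did not pair samples (correlations of same-numbered arrays from -0.313 to 0.257). Nothing says how mice were housed or processed together, so p-values measure the spread between these mice. The number of arrays limits precision. Alternatives were other scalings, background correction, filters, the authors' table, slide or mouse number as a block, a covariate for genes of other tissues, and leaving out each array.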

Additional observations from a re-analysis of the deposited data

How the results depend on the processing

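With 3 arrays a group, counts of genes depended on the setting. After POL5551 the 758 genes (59 higher, 699 lower) became 90 (18 and 72) with quantile normalization, 28 (6 and 22) with normexp background correction with quantile normalization, 220 (52 and 168) with median scaling, 62 (16 and 46) in the authors' table, 2027 with probes above background on all arrays, 0 with the median of other-tissue genes as covariate, and 60 to 4666 when one array was left out (71 without sham 1, 60 without POL5551 mouse 1, 114 without mouse 2, 2497 without sham 2, 4666 without sham 3). The median over all genes was -0.52, against -0.20, -0.14, -0.12 and -0.20 in the same 4 settings. After 2 days of G-CSF the 11 genes became 5 with normexp plus quantile normalization, 5 with probes above background on all arrays, 17 with the covariate and 2 to 166 leaving out an array (166 without sham 1). After 5 days the 22 became 12 with probes above background on all arrays, 0 with slide as a block, 36 over every probe and 1 to 55 leaving out an array. Between 5 and 2 days 0 became 3 with quantile normalization and 0 to 4 leaving out an array. Mouse number as a replicate block gave 181 genes after POL5551, 6 after 2 days and 14 after 5 days; this pairing changed no member's call.

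Members called stayed at 0 in all settings except 0 to 1 after POL5551 leaving out an array (Rarb without sham 2, Rarg without sham 3). Adh7 lost its call with quantile normalization alone or with normexp, the authors' table and the covariate, and Dhrs3 with the slide block, the covariate and no filter. Rbp4 after POL5551 was 1.47 with normexp plus quantile normalization. Signs turned in these cases, and the cause was not tested. With the covariate, the POL5551 differences were -1.13 for Aldh1a1, 0.04 for Stra6 and -1.28 for downstream Rarg; the 5-day ones were 0.24 for Stra6, 0.21 for upstream Rarb, -1.0 for downstream Rarg and 0.13 for upstream Rarg; and the 5-day minus 2-day ones were 0.31 for downstream Rarb, -0.74 for Aldh1a1 and -1.61 for downstream Rarg. With slide as a block, the 5-day differences were 0.43 for Aldh1a1, -4.22 for Aldh1a2 and -1.29 for the brighter Rara probe. That probe after 2 days was -0.03 with quantile normalization and -0.15 in the authors' table. For 5 minus 2 days, downstream Rarb was 0.17 with quantile normalization, 0.16 with normexp plus quantile normalization, 0.07 with median scaling and 0.19 in the authors' table, Aldh1a1 was -0.05 with normexp plus quantile normalization, and middle Rarg was 0.04 with normexp plus quantile normalization and 0.04 with median scaling.

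Leaving out an array turned signs within these ranges: after POL5551 Aldh1a1 -0.16 to 0.53; after 2 days the Rara probes -0.48 to 0.89 and -0.12 to 1.42, and downstream Rarg -1.0 to 1.03; after 5 days upstream Rarb -1.07 to 0.13, downstream Rarg -0.85 to 1.18 and upstream Rarg -0.40 to 0.00. For 5 minus 2 days the ranges were -0.41 to 0.05 for downstream Rarb, -0.06 to 0.49 for Aldh1a1, -0.83 to 0.17 for Rbp4, -0.96 to 1.96 for Aldh1a2, -0.20 to 1.04 for the brighter Rara probe, -0.19 to 0.43 for downstream Rarg and -0.03 to 0.75 for Adh7. The slide block could not be fitted for the 2-day group. For the 5-day group it reached sham only through slide 5, which held POL5551 mouse 3 and 5-day mouse 2. Detection limits Rbp4, Aldh1a2 and Rara, whose dim values sit at or near background.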
